A study of Mus musculus with 24 samples.

Results

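The 34 genes described here are mouse genes of the unfolded protein response and of the response to amino acid shortage, taken by symbol from the deposited count table. All 34 were found among its 24046 genes, and all 34 were among the 14099 genes with enough reads to be tested. They were treated as 2 branches. The ATF4 branch holds 16 genes: the transcription factors Atf4 and Ddit3, the stress-induced Chac1, Trib3, Sesn2, Vldlr and Ppp1r15a, the amino acid and one-carbon enzymes Asns, Psat1, Phgdh, Psph, Shmt2 and Mthfd2, and the transporter genes Slc7a11, Slc7a5 and Slc3a2. The ER chaperone branch holds 18 genes: the sensors Atf6, Ern1 and Eif2ak3, the factor Xbp1, the chaperones and folding enzymes Hspa5, Hsp90b1, Pdia4, Pdia6, Dnajb9, Dnajc3, Sdf2l1, Creld2, Manf, Calr and Canx, and the degradation genes Herpud1, Edem1 and Sel1l.

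RNA was measured in bulk bone marrow leukaemia cells of moribund secondary recipients of MLL-AF9 cells, which are blood progenitors transformed by a fusion of the genes MLL and AF9. In each of 4 sets, 3 libraries of cells with floxed alleles of a chromatin gene were set against 3 libraries of control cells with the wild-type allele. The VavCre Arid1b set compared Arid1b fl/fl VavCre+ with Arid1b +/+ VavCre+ cells, and the VavCre Arid2 set compared Arid2 fl/fl VavCre+ with Arid2 +/+ VavCre+ cells. Arid1b and Arid2 encode subunits of SWI/SNF chromatin remodelling complexes. VavCre is a Cre recombinase driven in blood cells, and the controls carried it too. In both MxCre sets, floxed and control cells alike carried MxCre, a Cre that is switched on by interferon, and the recipients were given pIpC at 12.5 µg per gram of body weight in 3 injections that began on day 21 after transplantation. The MxCre set titled A2 is described in its labels as Arid1b cells and the set titled A1b as Arid2 cells, so both are named here by title, without a deleted gene. Whether the libraries of 1 group came from separate primary leukaemias or from pooled mice is not in the labels, so p-values measure the spread between these libraries, which may be partly technical.

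Cells sense unfolded protein in the endoplasmic reticulum (ER) through the membrane sensors PERK (Eif2ak3), IRE1 (Ern1) and ATF6. PERK, like GCN2 in amino acid shortage, phosphorylates the initiation factor eIF2α, which lowers general translation but lets Atf4 mRNA be translated. ATF4 protein then induces genes for amino acid synthesis and uptake, together with Ddit3, Chac1 and Trib3. ATF6 and spliced XBP1 instead induce the chaperones of the ER and the genes that send misfolded protein for degradation. ATF4 is controlled largely in translation and ATF6 by cleavage, so the mRNA levels given here do not measure the activity of either protein. Reads of both chromatin genes were present in every library. Arid1b had 140 to 184 CPM (read counts scaled to a common library size) in floxed libraries of the VavCre Arid1b set and 186 to 367 CPM in its controls. Arid2 had 197 to 290 CPM in the floxed libraries of the VavCre Arid2 set and 218 to 443 CPM in its controls. A whole-gene count holds exons outside the floxed part and does not check the deletion.

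The libraries held 12069153 to 38315410 counts. Other measures stood apart in some libraries. Floxed library 3 of the MxCre set titled A2 had 13.6% of its counts in the ribosomal Rn45s entry, against at most 1.16% in the top gene of any other library. Floxed library 2 of the MxCre set titled A1b had deviations that fell with transcript length (Spearman rho −0.41 over 13951 genes). Control library 3 of the VavCre Arid1b set had chromosome 12 raised (median log2 deviation 0.515, 463 genes), and Pdia6, Dnajb9 and Sel1l lie on that chromosome. Control library 2 of the MxCre set titled A1b had a smaller rise of chromosome 12 (median log2 deviation 0.257) and was left out only singly. Y-linked Kdm5d was above 10 CPM in 10 libraries, and in the VavCre Arid1b set it was above 10 CPM in 0 of 3 floxed and 3 of 3 control libraries. The MxCre set titled A2 was split the other way, with 3 of 3 floxed and 0 of 3 control libraries above 10 CPM. Results were therefore also computed without the first 3 of these libraries and with a term for Y-linked expression. The myeloid primary granule genes (Mpo, Elane, Prtn3, Ctsg, Ms4a3 and Prss57) had no 0 in any library and summed to 2159 to 21323 CPM. Such a sum does not tell leukaemia cells from normal marrow cells of that type. The erythroid gene Hba-a1 was at 72.7 CPM in floxed library 3 of the set titled A2. In floxed library 2 of the set titled A1b it was at 58.2 CPM, against at most 6.97 CPM in any other library.

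Promoters were examined because they carry the sequence elements by which the branches are usually told apart. The 300 bases from 250 before to 50 after the start were available for 15 ATF4 branch and 16 ER chaperone branch genes (RefSeq, GRCm38.p6). The ER stress element, searched on both strands as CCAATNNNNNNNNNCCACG, was found in 7 of 16 ER chaperone branch promoters (Calr, Canx, Creld2, Dnajc3, Hsp90b1, Hspa5 and Pdia6). It was found in 0 of 15 ATF4 branch promoters and in 0.119% of all 32851 promoters listed. Members were counted by gene, and 0.137% of all 27025 genes had the element. The C/EBP-ATF response element was searched on both strands as TGATGNAA. It was found in 5 of 15 ATF4 branch promoters (Asns, Chac1, Slc7a11, Trib3 and Vldlr) and in 1 of 16 ER chaperone branch promoters (Herpud1). Its share was 3.97% of all promoters and 4.51% of all genes. The second ER stress element, ERSE-II, searched on both strands, was found in Herpud1, in 0.0365% of all promoters and in 0.0444% of all genes. The motifs do not overlap in the promoters shown. A match describes the letters in the window and shows no binding. The promoters printed below belong to the called members with a match and to Asns and Hspa5, the leading genes of each branch. The Chac1 window is chr2:119350992-119351291 on the plus strand, with its response element 193 bases before the start, and the Asns window is chr6:7693160-7693459 on the minus strand, with its element 23 bases before the start. The Herpud1 window is chr8:94386179-94386478 on the plus strand, with the response element at 112 and the second ER stress element at 52 bases before the start. The Calr window is chr8:84846882-84847181 on the minus strand and the Hspa5 window chr2:34771840-34772139 on the plus strand, with ER stress elements 162 and 65 bases before their starts. Each runs 5′ to 3′ on the strand of its gene, with the motif matches in capitals.
Chac1: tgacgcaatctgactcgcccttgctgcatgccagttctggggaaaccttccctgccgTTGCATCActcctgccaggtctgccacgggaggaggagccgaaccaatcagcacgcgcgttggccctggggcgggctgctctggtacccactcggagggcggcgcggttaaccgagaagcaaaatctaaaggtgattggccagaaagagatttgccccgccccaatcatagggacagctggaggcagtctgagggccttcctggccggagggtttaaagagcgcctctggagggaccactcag
Asns: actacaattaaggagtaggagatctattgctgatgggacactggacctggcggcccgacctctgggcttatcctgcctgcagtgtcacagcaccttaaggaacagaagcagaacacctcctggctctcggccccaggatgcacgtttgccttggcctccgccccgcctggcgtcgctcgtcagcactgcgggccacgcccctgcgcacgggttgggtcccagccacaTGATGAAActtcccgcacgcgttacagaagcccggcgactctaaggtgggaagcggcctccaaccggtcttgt
Herpud1: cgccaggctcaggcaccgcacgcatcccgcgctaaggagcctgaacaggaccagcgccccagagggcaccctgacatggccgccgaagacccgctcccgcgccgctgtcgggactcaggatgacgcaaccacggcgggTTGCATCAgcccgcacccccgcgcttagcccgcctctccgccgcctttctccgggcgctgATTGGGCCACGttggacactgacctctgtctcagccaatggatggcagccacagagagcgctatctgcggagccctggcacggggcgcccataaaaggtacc
Calr: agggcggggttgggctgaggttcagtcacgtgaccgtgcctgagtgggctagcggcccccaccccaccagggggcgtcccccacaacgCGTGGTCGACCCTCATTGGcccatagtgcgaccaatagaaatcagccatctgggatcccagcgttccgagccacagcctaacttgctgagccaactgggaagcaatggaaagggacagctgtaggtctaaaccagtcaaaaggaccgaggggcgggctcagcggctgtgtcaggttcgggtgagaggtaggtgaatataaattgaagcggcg
Hspa5: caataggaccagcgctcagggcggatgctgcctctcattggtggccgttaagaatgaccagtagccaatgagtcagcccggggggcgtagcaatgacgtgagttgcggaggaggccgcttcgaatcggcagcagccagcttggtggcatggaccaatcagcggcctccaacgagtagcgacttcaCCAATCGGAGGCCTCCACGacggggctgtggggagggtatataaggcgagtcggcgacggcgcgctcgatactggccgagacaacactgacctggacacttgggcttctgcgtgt

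Levels per transcript length differed widely among the members. On the scale of CPM divided by exon length in kilobases (RPKM, medians over 24 libraries), the chaperone genes led, with Calr at 488, Hsp90b1 at 227 and Hspa5 at 176. Atf4 stood at 84.7 RPKM, above 96.5% of the genes tested. The lowest members were Vldlr at 0.0145, Slc7a11 at 0.104, Trib3 at 0.227 and Chac1 at 0.56 RPKM, so the called ATF4 branch gene, Chac1, was measured near the low end of the table. The replicate spread also differed between the branches. The median SD of log2 CPM within groups was 0.58 for the ATF4 branch, 0.30 for the ER chaperone branch and 0.36 for all 14099 genes tested. Asns varied more within groups than 93.7% of genes (SD 1.31), and Herpud1 less than nearly all (SD 0.13, above 2.72% of genes).

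In VavCre Arid2 leukaemias Chac1 was lower in floxed cells, and most other ATF4 branch genes had floxed values below their controls without passing the test. Of its 16 genes, 13 had a log2 fold change below 0 and 3 above, with a median of −0.51, while the median over all genes tested was 0.0044. A member is named as called where edgeR's quasi-likelihood test gave it a p under 0.05 after Benjamini-Hochberg adjustment over all genes tested. By that rule 1 member was lower and 0 were higher, against 1.31% of all genes called in either direction in this set. At an unadjusted p under 0.05, 8 members were lower and 2 higher, against 19.5% of all genes. In 10 members every floxed library lay below every control library and in 3 every floxed library lay above, against 36.1% of all genes with no overlap in either direction. Branch members share regulators and are not independent of each other, so these counts are a description.

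The called gene was Chac1, which encodes an enzyme that degrades glutathione. It lies on chromosome 2 (119351242 to 119354326). Chac1 had 0.156, 0.11 and 0.427 CPM in the floxed libraries of the VavCre Arid2 set, against 2.01, 2.73 and 3.53 CPM in its controls. These levels rest on 6, 4 and 14 reads in the floxed libraries and 77, 77 and 104 reads in the controls. Every floxed library lay below every control library, and Chac1 fell by 3.55 on the log2 scale (SE 0.74, 95% interval −5.09 to −2.01, adjusted p = 0.0225 in edgeR's quasi-likelihood test). The call was lost without floxed library 1 (adjusted p = 0.134), without floxed library 2 (adjusted p = 0.146) or without control library 2 (adjusted p = 0.0752), with log2 fold changes from −4.31 to −3.22 over all libraries left out in turn. It was kept with the Y-linked term (log2 fold change −3.41, adjusted p = 0.0385).

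Atf4 itself, the transcription factor of the branch, was measured at high depth. It had 146, 159 and 155 CPM in the floxed libraries of the VavCre Arid2 set, against 230, 246 and 261 CPM in its controls. The groups did not overlap, and their means were 153 ± 6.47 and 246 ± 15.3 CPM (SD, n = 3 each). The log2 fold change was −0.68 (SE 0.18), with an adjusted p of 0.0631 in edgeR's test, so Atf4 missed the threshold. DESeq2 called it lower (adjusted p = 0.00917). So did edgeR's fits of this set's own libraries (adjusted p = 0.024) and without 3 libraries that stood apart (adjusted p = 0.013). No other alternative called it. Ddit3, which encodes the stress factor CHOP, had 8.85, 9.74 and 8.51 CPM in floxed libraries and 11.1, 10.2 and 13.4 CPM in controls. All 3 floxed values lay below the controls, and the log2 fold change of −0.36 was not called. Trib3, a pseudokinase induced by ATF4 and CHOP that feeds back on ATF4, had 0.104, 0.274 and 0.122 CPM in floxed libraries, against 1.25, 0.461 and 2.17 CPM in controls. Its groups did not overlap either (log2 fold change −2.91, SE 1.03, adjusted p = 0.132 in edgeR's test).

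None of the enzymes and transporters of the branch was called in edgeR's fit of all 24 libraries. Asns, which makes asparagine, had 6.72, 9.63 and 26.8 CPM in the floxed libraries of the VavCre Arid2 set, against 134, 97.5 and 111 CPM in its controls. The highest floxed library was below the lowest control, with a log2 fold change of −2.99 (SE 1.02, adjusted p = 0.125 in edgeR's test). Mthfd2, a mitochondrial enzyme of one-carbon metabolism, had 27.1, 27.5 and 36.9 CPM in floxed libraries, against 80.1, 81 and 87.6 CPM in controls (log2 fold change −1.44, adjusted p = 0.109 in edgeR's test). Slc7a11, the cystine-glutamate exchanger, had 0.807, 0.494 and 0.854 CPM in floxed libraries, against 3.15, 2.98 and 8.38 CPM in controls (log2 fold change −2.74, adjusted p = 0.0761 in edgeR's test). Both genes showed no overlap between groups. Slc3a2, the heavy chain that pairs with Slc7a11 and Slc7a5, had 76.1, 100 and 80.8 CPM in floxed libraries and 121, 113 and 131 CPM in controls, a log2 fold change of −0.50 that was not called. Vldlr, a lipoprotein receptor gene, had 0.104, 0 and 0.0916 CPM in floxed libraries, against 0.574, 2.59 and 0.136 CPM in controls (log2 fold change −3.96, adjusted p = 0.0643 in edgeR's test).

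Of the 3 serine synthesis enzymes, Phgdh and Psph had floxed values above their controls and Psat1 had a log2 fold change below 0. None of them was called in edgeR's fit of all 24 libraries. Phgdh, the first enzyme of serine synthesis, had 31.3, 28.1 and 8.09 CPM in the floxed libraries of the VavCre Arid2 set, against 6.18, 5.49 and 7.3 CPM in its controls. All floxed values lay above the controls, the nearest by a small margin (log2 fold change 1.83, SE 0.65, adjusted p = 0.138 in edgeR's test). Psph, the last enzyme, had 23.3, 20.3 and 21.4 CPM in floxed libraries, against 13.3, 14.4 and 16.7 CPM in controls, also without overlap (log2 fold change 0.55, not called). Psat1, the enzyme between them, had a log2 fold change of −0.29 and Shmt2, which converts serine to glycine in mitochondria, −0.18. Neither was called. Without the 3 libraries that stood apart, none of which belongs to this set, 5 ATF4 branch genes were called among 1144 genes in all. They were Atf4, Chac1, Asns, Slc7a11 and Vldlr. A fit of this set's own 6 libraries called 6 among 1030 (Atf4, Chac1, Asns, Mthfd2, Slc7a11 and Slc7a5). DESeq2 called 8 among 1095, with Atf4, Chac1, Trib3, Asns, Mthfd2, Slc7a11 and Vldlr lower and Phgdh higher. Over all alternatives the count of branch calls ran from 0 to 8.

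**Figure D1:**
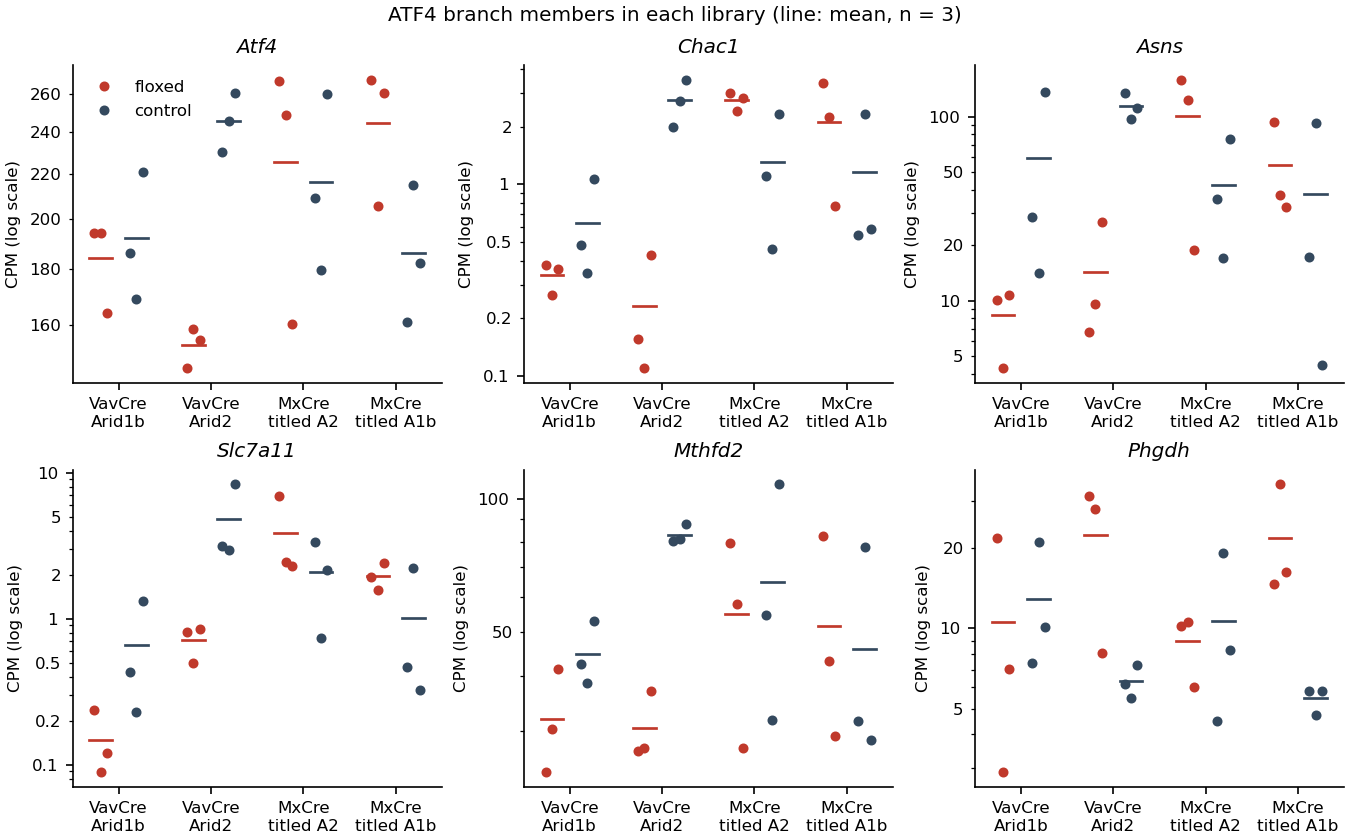
CPM per library on a log axis for 6 ATF4 branch genes in the 4 sets, floxed left of control, with the line at the mean of 3 libraries. In the VavCre Arid2 set the floxed libraries of Atf4, Chac1, Asns, Slc7a11 and Mthfd2 lie below every control library and those of Phgdh lie above, while Asns in the MxCre sets spreads from 4.48 to 159 CPM.

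In the same set, summed levels of cell type markers differed along with the ATF4 branch. The mature neutrophil list (10 of 11 genes in the table) summed to 190 to 942 CPM in floxed libraries, against 4071 to 9464 CPM in controls, and Mmp9 was its 1 called gene (log2 fold change −4.94). The plasma and B cell list (10 of 13) summed to 14.9 to 22.6 CPM in floxed libraries and 36.2 to 114 CPM in controls, with Cd79b called lower (log2 fold change −3.14). The dendritic list (10 of 10) summed to 1136 to 1893 CPM in floxed libraries and 269 to 499 CPM in controls, with 0 genes called. That sum was carried by Flt3 and Irf8. Of the list, 6 genes were above 0 and 4 below, with a median log2 fold change of 0.05. The monocyte and macrophage list (11 of 12) summed to 2462 to 3822 CPM in floxed libraries and 1299 to 2418 CPM in controls. Of its tested genes 8 were above 0 and 3 below, with 0 called. The T and NK cell list (9 of 9) summed to 18.5 to 67.1 CPM in floxed libraries and 12.1 to 16.7 CPM in controls. Of its tested genes 6 were above 0 and 2 below, with 0 called. Sums of the remaining marker lists overlapped between groups. None of the neutrophil markers was at 0 in any library, whereas the B cell factor Pax5 was at 0 in 9 of all 24 libraries. Their part in the result was not tested. In bulk RNA, fewer cells of a type and less RNA per cell cannot be told apart.

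The ER chaperone branch of the VavCre Arid2 set had 0 called genes in edgeR's test, 2 genes at an unadjusted p under 0.05, fewer than the 19.5% of all genes, and 2 called by DESeq2 among its 1095. Its 18 genes had a median log2 fold change of −0.11, with 7 above 0 and 11 below. Hspa5, the main Hsp70 chaperone of the ER (BiP), had 624, 707 and 738 CPM in floxed libraries, against 753, 753 and 797 CPM in controls. Hsp90b1, the ER Hsp90 (GRP94), had 537, 702 and 907 CPM in floxed libraries, against 970, 948 and 1024 CPM in controls. For both, every floxed library was below the controls, but the log2 fold changes were only −0.15 and −0.46 and were not called. Xbp1, the factor spliced by IRE1, overlapped between groups with 208, 198 and 270 CPM in floxed libraries and 248, 234 and 238 CPM in controls.

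Of the 18 genes of this branch, every floxed library lay above the controls in 4 and below them in 5. Over all genes, 36.1% had no overlap in either direction. The 4 above were the 3 membrane sensors and Dnajb9. Ern1 had 149, 184 and 161 CPM in the floxed libraries of the VavCre Arid2 set, against 48, 52.5 and 67.2 CPM in its controls (log2 fold change 1.56, SE 0.49, adjusted p = 0.105 in edgeR's test). Atf6 had 202, 242 and 177 CPM in floxed libraries, against 124, 123 and 108 CPM in controls (log2 fold change 0.81, SE 0.26, adjusted p = 0.107 in edgeR's test). Eif2ak3 had 70.2, 61.7 and 73.7 CPM in floxed libraries, against 52.3, 52.7 and 54.7 CPM in controls (log2 fold change 0.36). All 3 sensors were without overlap between groups, and none passed the threshold. DESeq2 called Ern1 and Atf6 in this set. Deviations rose with transcript length in the floxed libraries (Spearman rho 0.16, 0.18 and 0.17), while rho was −0.06, 0.05 and 0.17 in controls. The part of transcript length in these values was not tested.

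In VavCre Arid1b leukaemias the called members were all of the ER chaperone branch. Atf6 and Herpud1 were higher and Calr was lower, 3 of 18 genes, against 6.57% of all genes called in this set. At an unadjusted p under 0.05, 3 members of the branch were higher and 1 lower, against 24% of all genes, and its median log2 fold change was 0.07. In 3 of the 18 genes, Atf6, Herpud1 and Pdia6, the groups did not overlap, against 32.4% of all genes. The share of members that changed was therefore not above that of the table as a whole on the last 2 counts.

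Atf6, the gene of the sensor that is cleaved to a transcription factor (chromosome 1, 170704457 to 170868585), had 203, 291 and 244 CPM in floxed libraries of the VavCre Arid1b set, against 110, 142 and 93.4 CPM in its controls. The groups did not overlap, at 246 ± 44.2 and 115 ± 24.5 CPM (SD, n = 3 each), and the log2 fold change was 1.10 (SE 0.26, adjusted p = 0.0201 in edgeR's test). Herpud1 (chromosome 8, 94386429 to 94395371), a membrane component of ER-associated degradation, had 117, 153 and 123 CPM in floxed libraries, against 84, 105 and 107 CPM in controls. These did not overlap either, with a small log2 fold change of 0.41 (SE 0.12, adjusted p = 0.0464 in edgeR's test). Calr, the calcium-binding lectin chaperone calreticulin (chromosome 8, 84842088 to 84846931), had 1257, 1234 and 1479 CPM in floxed libraries, against 2912, 2491 and 1423 CPM in controls. Control library 3 lay within the floxed range, and the log2 fold change was −0.78 (SE 0.23, adjusted p = 0.0467 in edgeR's test).

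These 3 calls rested on few libraries. The call of Atf6 was lost without control library 1 (adjusted p = 0.0967), control library 3 (0.0806), floxed library 3 (0.107) or floxed library 4 (0.0561), with log2 fold changes of 0.96 to 1.27. Herpud1 kept its call only without floxed library 1, and Calr only without control library 3 (log2 fold change −0.997, adjusted p = 0.0164). With the Y-linked term none of the 3 was called: the log2 fold change was 1.22 for Atf6 (adjusted p = 0.102), 0.47 for Herpud1 (adjusted p = 0.164) and −0.51 for Calr (adjusted p = 0.41), all in edgeR's test. The floxed libraries all lacked and the controls all had Y-linked expression, so Y-linked expression and the floxed allele cannot be told apart within this set.

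The chaperones outside that group gave no common shift. Hspa5 had 655, 895 and 794 CPM in floxed libraries of the VavCre Arid1b set, against 632, 789 and 624 CPM in its controls. Hsp90b1 had 719, 913 and 1002 CPM in floxed libraries, against 800, 931 and 914 CPM in controls. Both overlapped, with log2 fold changes of 0.20 and −0.01. Xbp1 had 200, 244 and 247 CPM in floxed libraries and 126, 187 and 210 CPM in controls, a log2 fold change of 0.40 that was not called. Ern1 overlapped between floxed libraries at 113, 153 and 142 CPM and controls at 108, 151 and 49.2 CPM.

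**Figure D2:**
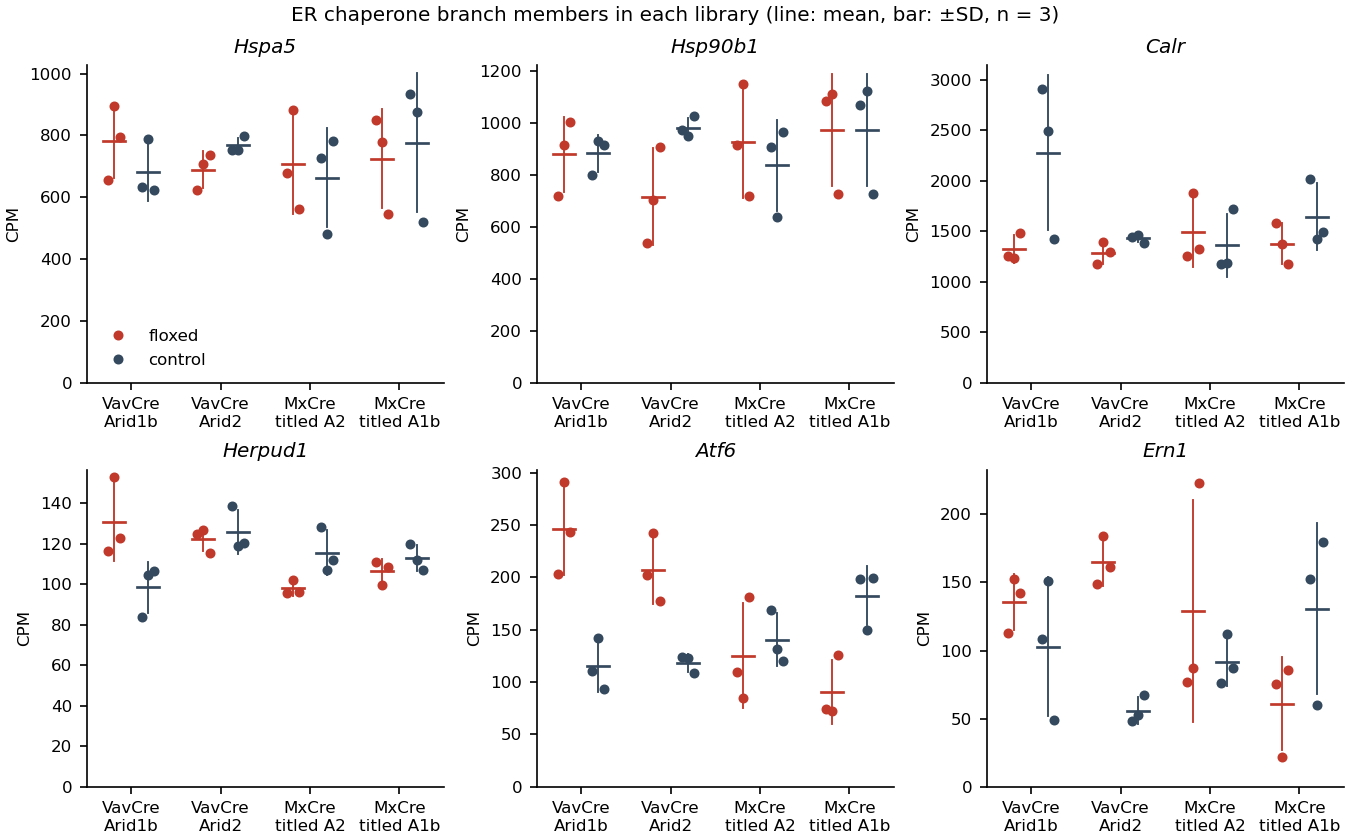
CPM per library on linear axes from 0 for 6 ER chaperone branch genes, floxed left of control, with the line at the mean and the bar at ± 1 SD of 3 libraries. Atf6 is higher in the floxed libraries of both VavCre sets and lower in those of the MxCre set titled A1b, Calr has 2 high VavCre Arid1b controls, and Hspa5 overlaps between floxed and control in 3 of 4 sets.

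The ATF4 branch in the VavCre Arid1b set had 0 called genes in edgeR's test, 3 at an unadjusted p under 0.05, all lower, which is below the 24% of all genes, and 1 called by DESeq2 among its 1815. Its median log2 fold change was −0.33, with 12 genes below 0. Asns had 10, 4.3 and 10.8 CPM in floxed libraries, against 28.5, 14.1 and 137 CPM in controls, so the groups were apart while the controls themselves spread widely (log2 fold change −2.84, SE 1.02, adjusted p = 0.0983 in edgeR's test). Without control library 3 that log2 fold change was −1.32. Slc7a11 had 0.236, 0.0886 and 0.12 CPM in floxed libraries, against 0.431, 0.229 and 1.32 CPM in controls, so that the groups met at their edges, and the log2 fold change was −2.11 (adjusted p = 0.139 in edgeR's test), or −1.09 without control library 3. Chac1 was at 0.378, 0.266 and 0.36 CPM in floxed libraries and 0.485, 0.343 and 1.07 CPM in controls, which overlap. Atf4 overlapped, at 194, 194 and 164 CPM in floxed libraries and 186, 169 and 221 CPM in controls. Vldlr had 0.0472, 0.443 and 0.36 CPM in floxed libraries and 2.05, 0.629 and 0.812 CPM in controls (log2 fold change −2.02, adjusted p = 0.208 in edgeR's test). These levels rest on 1, 10 and 6 reads in floxed libraries and 38, 11 and 16 reads in controls. Trib3 leaned the other way, at 0.567, 0.709 and 0.48 CPM in floxed libraries and 0.0539, 0.114 and 0.609 CPM in controls.

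Markers of antigen-presenting cells moved with the VavCre Arid1b contrast. The dendritic list (10 of 10 genes in the table) summed to 2166 to 4155 CPM in floxed libraries, against 138 to 620 CPM in controls, with 8 genes called higher (Cd74, H2-Aa, H2-Ab1, H2-Eb1, Itgax, Batf3, Clec9a and Siglech). The monocyte and macrophage list (11 of 12) summed to 2660 to 4529 CPM in floxed libraries and 752 to 1420 CPM in controls, with Ccr2, Cx3cr1 and Cd163 called higher. The plasma and B cell list summed to 71.3 to 138 CPM in floxed libraries and 26.7 to 73 CPM in controls, with Sdc1 called higher and carrying the sum, while 4 of its 8 tested genes were above 0 and 4 below (median −0.03). The T and NK cell list had 7 of 8 tested genes below 0, with Cd28 and Gzmb called in opposite directions, and the erythroid list had 9 of 10 above 0 with 0 called (median 4.24). Their part in the result was not tested.

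Neither MxCre set had a called member in edgeR's test. In the set titled A2, 0 of 34 members were called, against 0.0284% of all genes, and 0 had an unadjusted p under 0.05, against 10.6% of all genes. DESeq2 also called 0 members. Groups did not overlap in 1 ATF4 branch gene, Chac1, and in 1 ER chaperone branch gene, Herpud1, against 15% of all genes. Chac1 had 3.01, 2.43 and 2.84 CPM in floxed libraries, against 1.11, 0.461 and 2.34 CPM in controls (log2 fold change 1.09). Herpud1 had 95.5, 102 and 96.1 CPM in floxed libraries, against 128, 107 and 112 CPM in controls (log2 fold change −0.24). Asns had 159, 123 and 18.9 CPM in floxed libraries and 35.7, 17 and 75.3 CPM in controls, so both groups spanned several-fold and overlapped. The low floxed Asns value is library 3, the one with the high Rn45s share.

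The other members of this set lay within the control range or overlapped it. Atf4 had 267, 249 and 160 CPM in floxed libraries and 209, 180 and 260 CPM in controls, and Ddit3 had 12.3, 12.7 and 17 CPM against 13, 12 and 19.1 CPM. Sesn2, which restrains mTORC1 when leucine is short, had 7.33, 7.81 and 18.8 CPM in floxed libraries and 20.9, 13.2 and 19.3 CPM in controls (log2 fold change −0.66). Trib3 had 1, 0.7 and 0.277 CPM in floxed libraries and 0.482, 0.461 and 2.28 CPM in controls. Among chaperones, Hspa5 had 677, 883 and 562 CPM in floxed libraries and 727, 481 and 781 CPM in controls, and Hsp90b1 had 915, 1149 and 716 CPM against 908, 637 and 962 CPM. Canx, the membrane lectin chaperone, had 748, 765 and 594 CPM in floxed libraries and 576, 489 and 667 CPM in controls. Sdf2l1, a partner of Hspa5 and its cochaperones, had 168, 210 and 75.5 CPM in floxed libraries and 116, 75.9 and 120 CPM in controls. None of these separated the groups. Atf6 had 110, 84.6 and 181 CPM in floxed libraries and 169, 132 and 120 CPM in controls, and Ern1 76.7, 86.9 and 223 CPM against 76.5, 112 and 87.1 CPM. Xbp1 overlapped as well, at 269, 291 and 215 CPM in floxed libraries and 257, 201 and 204 CPM in controls.

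In the MxCre set titled A1b, 0 of 34 members were called, against 0.00709% of all genes, which is 1 gene. Without floxed library 1, 1535 genes were called in all, and of the members Vldlr and Ppp1r15a. At an unadjusted p under 0.05, 5 ATF4 branch genes were higher and 1 lower, and 2 ER chaperone branch genes were lower, against 17.4% of all genes. Groups did not overlap in 3 ATF4 branch genes above and 1 below and in 1 ER chaperone branch gene below, against 14.1% of all genes. DESeq2 called 3 ATF4 branch genes (Phgdh, Vldlr and Ppp1r15a) and Atf6, among 478 genes in all. The branch medians were 0.39 for the ATF4 branch and −0.17 for the ER chaperone branch.

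Phgdh again lay above its controls, with 14.7, 34.9 and 16.2 CPM in the floxed libraries of the set titled A1b, against 5.81, 4.74 and 5.84 CPM in its controls (log2 fold change 2.00, SE 0.66, adjusted p = 0.153 in edgeR's test). Psph had 19.9, 31.2 and 19.3 CPM in floxed libraries, against 17.2, 12.3 and 15.9 CPM in controls, and Slc3a2 had 143, 114 and 107 CPM against 65.4, 101 and 74.3 CPM. These 3 genes had no overlap between groups. Atf4 had 268, 205 and 260 CPM in floxed libraries and 161, 215 and 182 CPM in controls, which overlap (log2 fold change 0.40, adjusted p = 0.262 in edgeR's test). Ppp1r15a, the phosphatase subunit that reverses eIF2α phosphorylation, had 4.09, 9.72 and 46.4 CPM in floxed libraries and 4.65, 3.34 and 5.26 CPM in controls. Its high value was floxed library 3, in which immediate-early genes averaged a log2 CPM of 7.52, against at most 4.61 in any other library. The part of those genes in the result was not tested.

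Vldlr had 1 read in all in the floxed libraries of the set titled A1b and 46 reads in the controls, at 0.0649, 0 and 0 CPM and 1.09, 1.17 and 0.714 CPM. The control level was 38.4 times the floxed level by scaled counts, with a counting interval of 6.56 to 1550 that covers counting error only. Asns spread from 32.4 to 93.6 CPM in floxed libraries and from 4.48 to 92.4 CPM in controls, and Chac1 from 0.769 to 3.37 CPM and from 0.543 to 2.34 CPM. Trib3 had 1.3, 0.521 and 0.256 CPM in floxed libraries and 0.465, 1.11 and 0 CPM in controls, and Ddit3 had 12.4, 19.6 and 12.9 CPM against 11.3, 11 and 14.8 CPM. All 4 genes other than Vldlr overlapped between groups.

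Atf6 lay below its controls in the set titled A1b, at 74.3, 71.9 and 125 CPM in floxed libraries, against 198, 150 and 199 CPM in controls, without overlap (log2 fold change −1.01, SE 0.26, adjusted p = 0.107 in edgeR's test). Ern1 had 75.2, 21.9 and 85.6 CPM in floxed libraries and 153, 60 and 180 CPM in controls, which overlap (log2 fold change −1.10). The lowest Atf6 and Ern1 values were in floxed library 2, the one whose deviations fell with transcript length. Atf6 and Ern1 have exon lengths of 9231 and 8173 bases. The part of transcript length in these values was not tested. Pdia4, a disulfide isomerase, had 197, 127 and 92.7 CPM in floxed libraries and 201, 208 and 133 CPM in controls. Hspa5 had 851, 780 and 544 CPM in floxed libraries and 936, 875 and 520 CPM in controls, Hsp90b1 1083, 1110 and 724 CPM against 1066, 1123 and 724 CPM, and Xbp1 237, 300 and 197 CPM against 258, 242 and 183 CPM. Each of these 3 had overlapping groups.

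**Figure D3:**
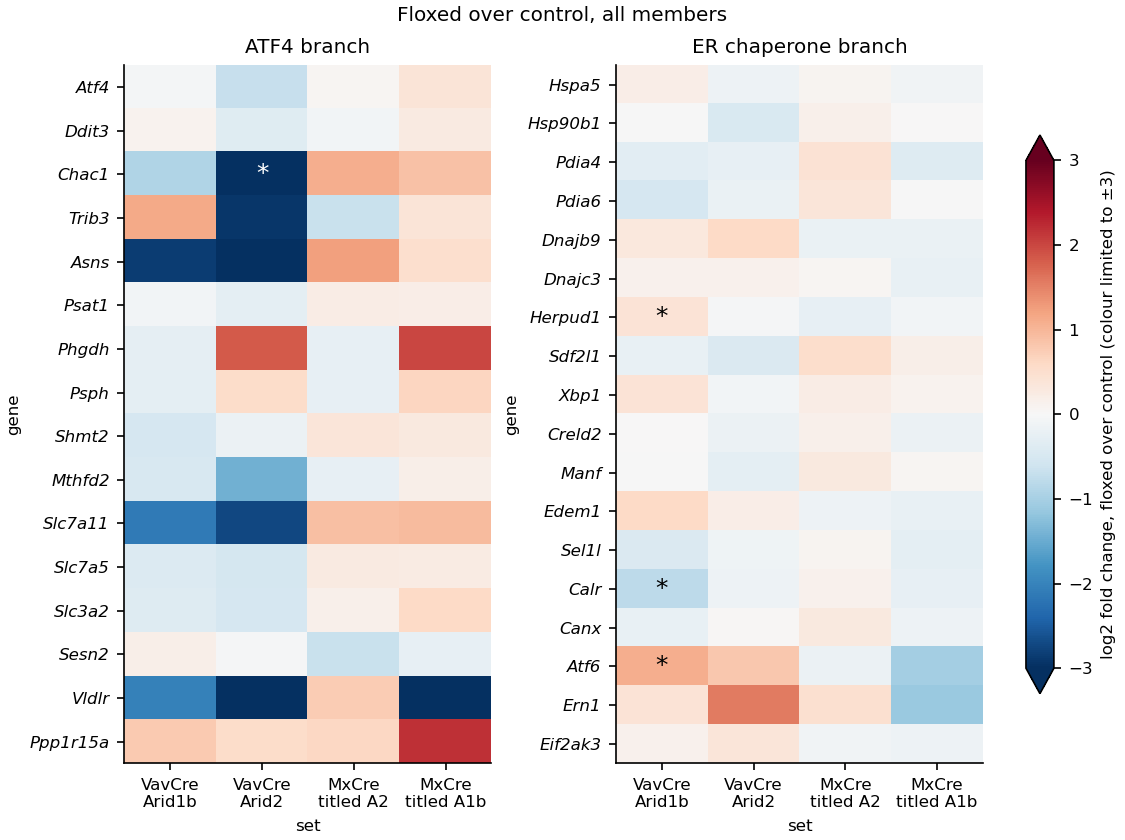
Log2 fold change, floxed over control, of all 34 members in the 4 sets, with the colour limited at 3 in both directions and an asterisk on each call. The 4 asterisks are Chac1 in the VavCre Arid2 set and Atf6, Herpud1 and Calr in the VavCre Arid1b set, and Atf6 has opposite signs in the VavCre sets and in the MxCre set titled A1b.

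Whether the floxed effect differed between sets was tested as the difference of 2 contrasts, for all 6 pairs of sets, in edgeR's quasi-likelihood test over all genes. The VavCre Arid2 effect on Chac1 was lower than that in the MxCre set titled A2 by −4.64 on the log2 scale (SE 0.99, adjusted p = 0.0438), the 1 member called where 0.489% of all genes were. Against the set titled A1b, 3 members were called where 1.5% of all genes were. They were Chac1 (−4.43, SE 0.99, adjusted p = 0.037), Atf4 (−1.08, SE 0.25, adjusted p = 0.0428) and Atf6 (1.82, SE 0.37, adjusted p = 0.0253). With the Y-linked term Chac1 kept its call against the set titled A2 (adjusted p = 0.027). Y-linked expression was fully split between floxed and control libraries of that set, so the term cannot tell it from the floxed allele there. Against the set titled A1b the calls of Chac1 (adjusted p = 0.0718), Atf4 (0.111) and Atf6 (0.0964) were lost with the term. Without control library 2 of the set titled A1b, 8 members were called in that comparison, among 734 genes in all, and without any 1 of 7 other libraries 0 were. Against the set titled A2, 4 members were called without its floxed library 3, and without any 1 of the other 9 whose omission moved the count 0 were. Single omissions in that comparison gave 0 to 666 calls over all genes.

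The VavCre Arid1b effect on Atf6 was higher than in the set titled A1b by 2.11 (SE 0.37, adjusted p = 0.017), the 1 member called where 0.745% of all genes were. Against the set titled A2, Atf6 (1.26, SE 0.37, adjusted p = 0.0428) and Herpud1 (0.65, SE 0.17, adjusted p = 0.0286) were called where 7.35% of all genes were. Both of these calls were lost with the Y-linked term (adjusted p = 0.29 and 0.231 in edgeR's test). That of Atf6 against the set titled A1b was kept (adjusted p = 0.0167 in edgeR's test). Within the VavCre Arid1b set Y-linked expression was fully split, so the term cannot tell it from the floxed allele there. A kept or lost call with this term therefore does not show the part of Y-linked expression. With single libraries left out, 0 members were called against the set titled A1b without control library 1 or floxed library 3 of the VavCre Arid1b set or control library 1 or 3 of the set titled A1b. Against the set titled A2, 0 were called without control library 1 or floxed library 3 of the VavCre Arid1b set or control library 1 or floxed library 1 of the set titled A2. Between the VavCre sets 0 members were called, against 0.0142% of all genes. At an unadjusted p under 0.05 there were 6 of 34 members, against 1389 of 14099 genes. The Chac1 difference there was 2.64 (adjusted p = 0.351 in edgeR's test). Between the MxCre sets 0 members were called, against 0.192% of all genes. A VavCre set and an MxCre set differ in Cre, pIpC treatment and preparation and may differ in gene, and these cannot be told apart. Sets with the same Cre may still differ in preparation as well as in gene. Y-linked expression was also split in opposite directions in the VavCre Arid1b set and the set titled A2.

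The controls alone, 6 MxCre against 6 VavCre libraries, were compared to see how far the members moved without floxed alleles. In edgeR's test 0 of 34 members were called, against 0.00709% of all genes, DESeq2 called 0, and 3 had an unadjusted p under 0.05, against 11.6% of all genes. They were Vldlr (log2 difference −1.81, adjusted p = 0.384), Slc3a2 (−0.33, adjusted p = 0.421) and Atf6 (0.46, adjusted p = 0.391). Asns differed by −1.04 in these controls, within a spread that ran from 4.48 to 137 CPM.

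The members not yet given by library are described by the range of their log2 fold changes. Among ATF4 branch genes, Slc7a5, the large neutral amino acid transporter, ranged in log2 fold change from −0.52 to 0.26 over the 4 sets, Shmt2 from −0.50 to 0.35 and Psat1 from −0.29 to 0.23. Among ER chaperone branch genes, Dnajb9, a cochaperone of Hspa5, ranged from −0.21 to 0.60, Edem1, a degradation lectin, from −0.22 to 0.59, and Pdia6, a disulfide isomerase, from −0.51 to 0.37. Dnajc3, a cochaperone, Creld2, Manf, a secreted ER protein, and Sel1l, the scaffold of an ER ubiquitin ligase, stayed between −0.43 and 0.29. None of these genes was called in any set in the fit of all 24 libraries, and Slc7a5 was called in the VavCre Arid2 set in the fit of that set's own libraries (log2 fold change −0.52, adjusted p = 0.0406). Outside the VavCre Arid1b set, Calr ran from 1171 to 2020 CPM and Herpud1 from 95.5 to 138 CPM over all 18 libraries. Pdia6 and Sel1l in the VavCre Arid1b contrast include the control library with raised chromosome 12, in which Pdia6 stood at 521 CPM against 339 and 351 CPM in the other 2 controls and 255, 265 and 331 CPM in the floxed libraries.

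Averaged over its genes, the ATF4 branch level per library (mean log2 CPM) was 3.44 ± 0.023 in floxed and 4.37 ± 0.10 in control libraries of the VavCre Arid2 set (SD, n = 3 each), a difference of −0.93. In the VavCre Arid1b set it was 3.44 ± 0.095 in floxed and 3.85 ± 0.27 in control libraries. Floxed and control libraries did not overlap in either VavCre set. In the MxCre sets it was 4.13 ± 0.34 in floxed and 3.94 ± 0.41 in control libraries for the set titled A2, and 4.11 ± 0.22 and 3.70 ± 0.49 for the set titled A1b. The VavCre Arid2 controls were the highest and least spread of the control groups. The ER chaperone branch level differed between floxed and control libraries by 0.09, 0.07, 0.11 and −0.24 in the VavCre Arid1b, VavCre Arid2, MxCre A2 and MxCre A1b sets, and that of all genes tested by 0.06, −0.08, −0.02 and −0.07. No test was made of these averages, since the members were chosen with results known.

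**Figure D4:**
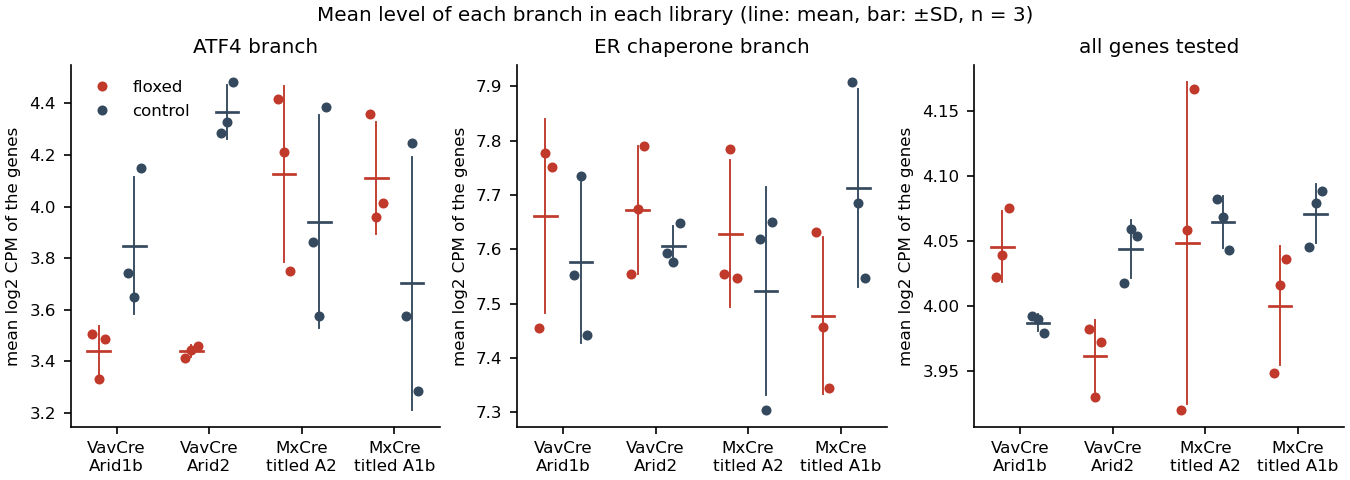
Mean log2 CPM per library over the ATF4 branch, the ER chaperone branch and all genes tested in the 4 sets, floxed left of control, with the line at the mean and the bar at ± 1 SD of 3 libraries. The ATF4 branch level separates the VavCre Arid2 groups, at 3.44 in floxed and 4.37 in control libraries, as it does the VavCre Arid1b groups at 3.44 and 3.85, while the ER chaperone branch means stay between 7.48 and 7.71 in every group.

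Within groups, 6 pairs of members were compared as deviations of log2 CPM from the group mean over 24 libraries, with a two-sided permutation test within groups. Hspa5 and Hsp90b1, both ER chaperones, varied together (Pearson r = 0.89, Spearman rho = 0.86, permutation p = 0.00021, adjusted over the 6 pairs 0.00126), and r was 0.84 without the 2 libraries farthest from the median of Hspa5. Asns and Chac1 varied together as well (r = 0.73, rho = 0.73, permutation p = 0.00074, adjusted 0.00222, and r = 0.67 without 2 libraries). Asns and Psat1 gave r = 0.66 and rho = 0.57 (permutation p = 0.00653, adjusted 0.0131), and without 2 libraries r was 0.62 with an adjusted permutation p of 0.0516. Across the branches, Asns and Hspa5 gave r = 0.49 (adjusted permutation p = 0.119), and Ddit3 and Hspa5 gave r = 0.03 (permutation p = 0.904). Hspa5 and Calr gave r = 0.50 (adjusted permutation p = 0.0651). The libraries share depth, batch and cell makeup, which such relations hold too.

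**Figure D5:**
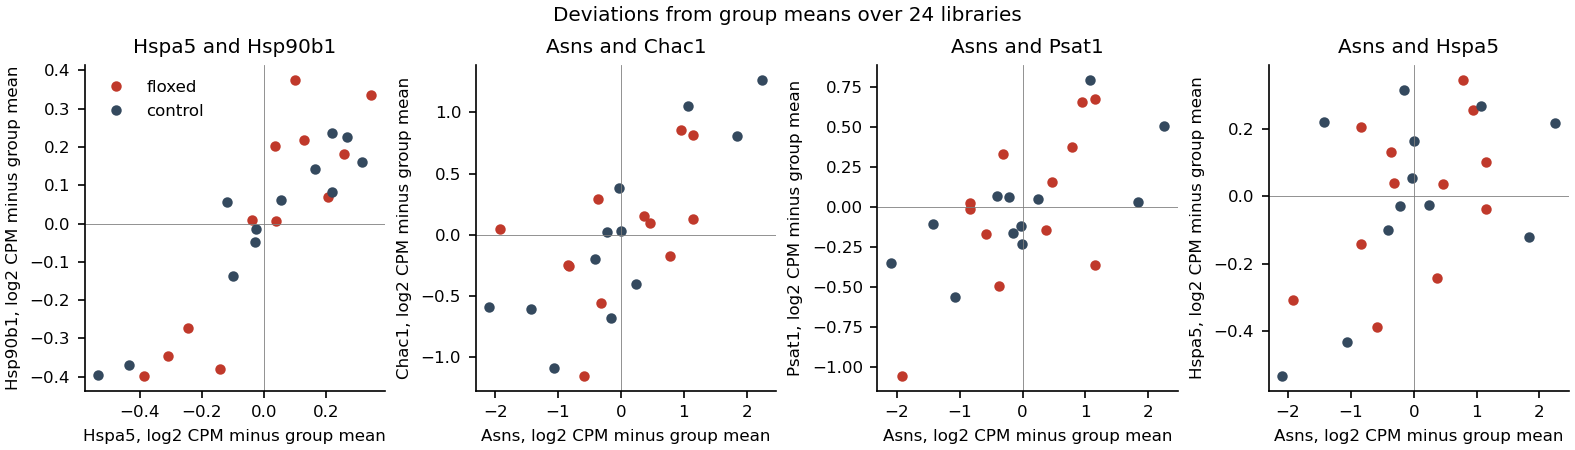
Deviation of log2 CPM from the group mean in each of 24 libraries for 4 pairs of members, with floxed and control libraries in separate colours. Hspa5 against Hsp90b1 (r = 0.89) and Asns against Chac1 (r = 0.73) lie along a line, while Asns against Hspa5 (r = 0.49) scatters.

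The remaining genes of these pathways were read from lists of neighbouring functions, chosen with earlier results known. Of 8 kinases and partners of eIF2α, 1 was called in the VavCre Arid1b set, in which 6.57% of all genes were called: Eif2ak2, the double-stranded RNA sensor PKR, was lower, with 36, 35.6 and 43.1 CPM in floxed libraries, against 63.6, 50.2 and 75.7 CPM in controls (log2 fold change −0.73, adjusted p = 0.0444 in edgeR's test). Of 22 further ATF4 targets tested, 1 was called there, a share below that of all genes. At an unadjusted p under 0.05, 6 were higher and 2 lower, against 24% of all genes. In 7 every floxed library lay above the controls and in 6 below, against 32.4% of all genes without overlap. The called target was Atf3, a stress and immediate-early factor. It was higher, with 2.22, 10.8 and 7.15 CPM in floxed libraries, against 0.377, 0.914 and 0.558 CPM in controls. Its log2 fold change was 3.44 (adjusted p = 0.0473 in edgeR's test). Of 16 immediate-early genes, Atf3 and Klf6 were called higher in that set, with a list median of 1.48. Klf6, a zinc finger factor, had 89, 132 and 103 CPM in floxed libraries, against 30.2, 34.8 and 30.3 CPM in controls (log2 fold change 1.77, adjusted p = 0.0333 in edgeR's test). The part of the immediate-early genes in the Atf3 result was not tested. In the VavCre Arid2 set 0 of the 22 targets were called, against 1.31% of all genes. At an unadjusted p under 0.05, 3 were lower and 2 higher, against 19.5% of all genes, and the list median was −0.38.

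The cytosolic aminoacyl-tRNA synthetases, which charge tRNAs and are ATF4 targets in part, had 0 of 12 genes called in any set by edgeR's test. At an unadjusted p under 0.05, 0, 2, 0 and 1 of them passed in the VavCre Arid1b, VavCre Arid2, MxCre A2 and MxCre A1b sets. Over all genes the shares were 24%, 19.5%, 10.6% and 17.4% in that order, and 6.57%, 1.31%, 0.0284% and 0.00709% were called. Their median log2 fold changes were −0.25 and −0.29 in the VavCre Arid1b and VavCre Arid2 sets and 0.19 and 0.14 in the MxCre sets titled A2 and A1b. In both VavCre sets 10 of 12 were below 0, and in the MxCre sets 11 and 10 were above 0. Other lists were further ER folding genes (19 tested), ER degradation and transport genes (15), mitochondrial unfolded protein response genes (7) and cytosolic heat shock genes (8). They had 0 calls in any set by edgeR's test, against the same called shares of all genes. The medians of the first 2 of these lists lay between −0.24 and 0.09.

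Between sets, some of these neighbouring genes differed in edgeR's test. Of the further ATF4 targets, Stc2, which encodes the secreted stanniocalcin 2, had a lower floxed effect in the VavCre Arid2 set than in the MxCre set titled A1b, by −5.71 on the log2 scale (SE 1.29, adjusted p = 0.0381). Its levels were 0.0781, 0.137 and 0.061 CPM in floxed and 0.495, 1.95 and 0.509 CPM in control libraries of the VavCre Arid2 set, and 2.46, 2.78 and 2.74 CPM in floxed and 0.853, 0.167 and 0.519 CPM in control libraries of the set titled A1b. Groups were apart in both sets, on opposite sides. Ddit4, an inhibitor of mTORC1, and Slc38a2, a neutral amino acid transporter, had higher floxed effects in the VavCre Arid1b set than in the set titled A2, by 5.08 (adjusted p = 0.0467) and 1.04 (adjusted p = 0.0449), as did Ero1lb, an ER oxidase, by 2.33 (adjusted p = 0.018). Eif2ak2 had a lower effect in that comparison, by −1.26 (adjusted p = 0.0186). The immediate-early genes Klf6 and Nr4a1 were also called there, at 2.78 and 3.71 (adjusted p = 0.02 and 0.0451), and their part in the result was not tested. In this comparison of the VavCre Arid1b set with the set titled A2, 7.35% of all genes were called. Y-linked expression was fully split between floxed and control libraries in both sets, in opposite directions. Its part and that of the floxed alleles cannot be told apart there. Against the set titled A1b, Ier3, also immediate-early, had lower floxed effects in the VavCre Arid1b and VavCre Arid2 sets, by −3.30 (adjusted p = 0.0243) and −3.65 (adjusted p = 0.0205). Egr1, of the same list, had lower floxed effects in the VavCre Arid2 set and in the set titled A2 than in the set titled A1b, by −10.2 (adjusted p = 0.024) and −10.5 (adjusted p = 0.0392). In the set titled A1b, floxed library 3 stood far above the other floxed libraries, with Egr1 at 14.5, 5.04 and 394 CPM and Ier3 at 6.16, 9.55 and 30.3 CPM in floxed libraries 1 to 3.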

How the data were processed

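Whole-number read counts per gene symbol were deposited by the authors in 1 table with a column for each of 24 libraries, and 0 columns were left unused. Per the labels' protocols, RNA was extracted with TRIzol, selected for poly(A) and made into directional libraries. Alignment used STAR and the mouse build mm10, per the submitters' processing notes. Not given in the sources used here are the counter, annotation and strand setting, so genes that overlap a neighbour are uncertain.

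Libraries were grouped by title. Genes were kept by filterByExpr (minimum count 10, total 15), which left 14099 of 24046 genes. 2194 genes had no read. Counts were scaled by TMM and fitted with edgeR 4.0.16 (R 4.3.3, robust quasi-likelihood test, 8 group means, 16 residual degrees of freedom, common biological coefficient of variation 0.4). Benjamini-Hochberg adjustment ran over all genes tested within each comparison, with calls under 0.05. Each set has its own controls. Log2 CPM used a prior count of 2, and intervals are at 95%. Totals ran from 12069153 to 38315410 counts, which limits the precision of genes with few reads. Exon lengths came from GENCODE M21 (98.95% of genes tested matched), and positions and promoters from RefSeq GRCm38.p6 (31 of 34 members have a promoter).

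Relations used 100000 permutations within groups. The fits and relation tests were tested on simulated data. Alternatives were size factors of DESeq2 (1.42.0), DESeq2 itself, no low-count filter, a Y-linked term, a replicate block, fits of the libraries compared only, omission of 3 libraries that stood apart and of each library in turn. Per-library values are given for called members, the 3 members of each branch with the smallest p in each set, and 8 leading members by role. From other pathway lists, up to 4 called genes each were named, and Pdia6, Slc3a2, Psph and Mthfd2 were named beyond this after their values were seen. The members and lists were chosen with earlier results of these data known. Same-numbered floxed and control libraries did not deviate together (correlations from −0.217 to 0.259), so numbers were not taken as pairs.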

Additional observations from a re-analysis of the deposited data

Results flagged for a closer look

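Members differed between sets by a test of the difference itself, in edgeR's quasi-likelihood test over all genes, in 7 cases. Chac1 had a lower floxed effect in the VavCre Arid2 set than in the MxCre sets titled A2 and A1b, by −4.64 and −4.43 on the log2 scale. Atf4 had a lower effect in the VavCre Arid2 set than in the set titled A1b, by −1.08. Atf6 had a higher effect in the VavCre Arid1b set than in the sets titled A2 and A1b, by 1.26 and 2.11, and a higher effect in the VavCre Arid2 set than in the set titled A1b, by 1.82. Herpud1 had a higher effect in the VavCre Arid1b set than in the set titled A2, by 0.65.

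Among the 6 VavCre control libraries, 1 library lay far from the others in 2 genes. Pdia6 stood at 521 CPM in control library 3 of the VavCre Arid1b set, against 314 to 369 CPM in the other 5, and Dnajc3 at 134 CPM, against 161 to 177 CPM. Chance marks about 1 in 20 such groups, and 2 of 68 tested were marked. Pdia6 lies on chromosome 12, which was raised in that library, and Dnajc3 lies on chromosome 14.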

How the results depend on the processing

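For the VavCre Arid1b set, ER chaperone branch calls numbered 3, against 1 without the low-count filter, 0 with the Y-linked term, 0 with a replicate block, 1 in a fit of that set's libraries and 0 to 2 with each library left out in turn. DESeq2 called 1 ATF4 branch gene there. For the VavCre Arid2 set, ATF4 branch calls numbered 1, against 5 without 3 libraries that stood apart, 0 with the replicate block, 8 in DESeq2, 6 in a fit of that set's libraries and 0 to 2 with each library left out. Its ER chaperone branch calls were 0, against 2 without the 3 libraries, 2 in DESeq2 and 2 in the fit of that set. In the MxCre set titled A1b, DESeq2 called 3 ATF4 and 1 ER chaperone branch genes, and leaving out libraries gave 0 to 2 ATF4 branch calls.

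Calls between sets also moved. VavCre Arid1b minus MxCre titled A2 gave 1 without the low-count filter, 0 with the Y-linked term, 0 with the replicate block and 0 to 3 with libraries left out. VavCre Arid1b minus MxCre titled A1b gave 0 with the block and 0 to 1 with libraries left out. VavCre Arid2 minus MxCre titled A2 gave 0 without the filter, 2 with the Y-linked term, 8 without the 3 libraries, 0 with the block and 0 to 4 with libraries left out. VavCre Arid2 minus MxCre titled A1b gave 1, 0, 6 and 0 under those 4 settings and 0 to 8 with libraries left out. The calls over all genes moved too. In these 4 comparisons, in that order, they numbered 1036, 105, 69 and 212 in the main fit. Over the alternatives they ran from 1 to 2076, 0 to 322, 0 to 1991 and 5 to 1058.

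Small log2 fold changes changed sign. In the VavCre Arid1b set, without the 3 libraries, Atf4 stood at 0.069, Ddit3 at −0.049 and Hsp90b1 at 0.041. Hsp90b1 stood at 0.012 with DESeq2's size factors and with DESeq2 and at 0.010 in the fit of that set. In the set titled A1b, Hsp90b1 stood at −0.0076 without the filter, −0.0085 with the Y-linked term, −0.0064 in the fit of that set and −0.093 without the 3 libraries, where Xbp1 stood at −0.061. With each library left out, log2 fold changes spanned 0 in several cases. In the VavCre Arid1b set these were Atf4 (−0.14 to 0.082), Ddit3 (−0.037 to 0.27) and Hsp90b1 (−0.11 to 0.12). In the set titled A2 they were Atf4 (−0.089 to 0.26), Ddit3 (−0.23 to 0.16), Trib3 (−1.09 to 0.50), Hspa5 (−0.094 to 0.24) and Hsp90b1 (−0.031 to 0.31). In the set titled A1b they were Trib3 (−0.45 to 1.63), Asns (−0.13 to 2.33), Hspa5 (−0.32 to 0.069), Hsp90b1 (−0.17 to 0.17) and Xbp1 (−0.077 to 0.23).

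Asns with Psat1 had r = 0.62 (adjusted permutation p = 0.0516) without 2 libraries and r = 0.61 (adjusted permutation p = 0.111) without the 3 libraries, and Ddit3 with Hspa5 had r = −0.22 without 2 libraries. The ATF4 branch level in the VavCre Arid2 set differed by −1.04 with a prior count of 0.5. Among 11 called gene results, 43 of 108 cases with a library left out and 35 of 63 other cases kept the call, and none changed direction. Over all genes, calls in the VavCre Arid1b set were 926, against 619 without the filter, 101 with the Y-linked term, 1 with the block and 1815 in DESeq2. In the VavCre Arid2 set they were 185, against 103, 104, 3 and 1095. In the MxCre sets titled A2 and A1b they were 4 and 1, against 196 and 478 in DESeq2, with 0 to 18 and 0 to 1535 as libraries were left out. The cause of these shifts was not tested. Chac1, Trib3, Slc7a11 and Vldlr are limited by depth, at a few reads per library in some groups.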
